A study of Mus musculus with 18 samples.

Results

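Mouse islets were read for 8 genes of the cell death machinery: the death receptor Fas, the caspases Casp8, Casp1 and Casp12, the caspase-8 inhibitor Cflar (c-FLIP), and the inhibitors of apoptosis Birc2 (cIAP1), Birc3 (cIAP2) and Xiap. They were taken by symbol from the deposited count table and are 8 of its 55536 genes. All 8 passed the low-count filter, which kept 17590 genes. The islets came from 17-week-old male mice of the strain NOD.CB17-Prkdcscid/NCrCrl in every group, which carries the Prkdc scid mutation and is known to lack mature T and B lymphocytes, though 1 library held T cell reads, as given below. The genotypes were ZnT8-/- (KO), ZnT8+/- (Het) and wild type (WT) for Slc30a8, the gene of the insulin granule zinc transporter ZnT8. Islets of each genotype were cultured for 24 h with a cytokine mix of TNF-α at 100 pg/ml, IL-1β at 150 pg/ml and IFN-γ at 10 pg/ml, or left untreated in RPMI1640 medium. This gives 6 groups of 3 libraries, and the labels do not tie libraries to mice. The p-values therefore reflect variation among these libraries, which may be technical in part.

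Fas is a cell surface receptor that, once bound by Fas ligand, gathers an adaptor and the initiator caspase-8, whose activation starts apoptosis. Cflar resembles caspase-8 and competes with it in that complex, cIAP1 and cIAP2 are ubiquitin ligases bound to TNF receptor complexes, and XIAP blocks active caspases directly. Caspase-1 belongs to the inflammasome branch, where it matures IL-1β and opens gasdermin D pores, and caspase-12 is an inflammatory-group caspase that resides at the endoplasmic reticulum in mouse. In beta cells, Fas is known as a gene that inflammatory cytokines induce.

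With cytokines, Fas, Casp1 and Birc3 rose in KO, Het and WT islets, and the bases just upstream of their starts are shown here because these were the 3 members that moved together in every genotype. Each line holds the 250 bases before the RefSeq start, 5′ to 3′ on the gene's own strand (build GRCm38.p6). They are chr19:34290409-34290658 on the plus strand for Fas, chr9:5298267-5298516 on the plus strand for Casp1 and chr9:7873171-7873420 on the minus strand for Birc3, and capitals mark a gamma-activated site (GAS).
Fas: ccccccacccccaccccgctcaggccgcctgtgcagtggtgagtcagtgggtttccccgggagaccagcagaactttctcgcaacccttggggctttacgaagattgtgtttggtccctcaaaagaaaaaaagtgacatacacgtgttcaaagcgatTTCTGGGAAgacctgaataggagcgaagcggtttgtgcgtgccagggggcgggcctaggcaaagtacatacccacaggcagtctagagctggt
Casp1: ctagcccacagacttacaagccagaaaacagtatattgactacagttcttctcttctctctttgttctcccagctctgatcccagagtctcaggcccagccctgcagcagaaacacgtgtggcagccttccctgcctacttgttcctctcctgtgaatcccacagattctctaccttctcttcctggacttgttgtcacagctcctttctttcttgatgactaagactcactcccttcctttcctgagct
Birc3: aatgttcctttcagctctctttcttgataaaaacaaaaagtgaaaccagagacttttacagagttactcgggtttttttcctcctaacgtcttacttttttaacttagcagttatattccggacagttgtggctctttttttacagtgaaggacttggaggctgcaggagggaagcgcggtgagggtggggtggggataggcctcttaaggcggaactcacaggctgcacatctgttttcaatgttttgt

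Promoter windows of 300 bases, with 250 before and 50 after a start, were found in RefSeq for all 8 members, 11 windows in all, and searched on both strands for 3 motifs. The GAS letters TTCNNNGAA stood in the Fas window at bases -93 to -85 from the start, with the match TTCTGGGAA, and 8.3% of all 32851 mouse windows hold these letters. The Casp12 window held the same match at -102 to -94 and at -36 to -28. The core of an interferon regulatory factor element, GAAANNGAA, was found at 8 to 16 in the Cflar window and at -60 to -52 in a Xiap window, and stands in 8.56% of all windows. The NF-kB consensus was found at 23 to 32 in that Xiap window, and stands in 8.46% of all windows. The windows of Casp1, Casp8, Birc2 and Birc3 held none of these letters. A match is a match of letters and not evidence of binding, and no match covers only these 300 bases.

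The libraries held 22990164 to 29946680 reads assigned to genes. Levels are given as CPM, reads of a gene scaled to the TMM-adjusted library size, libraries in the order of replicates 1 to 3. Slc30a8 stood at 47.9, 55.9 and 44.0 CPM in untreated KO and at 126, 95.7 and 111 CPM in untreated Het islets, against 98.8, 123 and 125 CPM in untreated WT islets. The KO libraries thus still hold reads of it, and Het overlapped WT. As for islets, 10 beta cell markers, Ins1 and Ins2 among them, were high in every library, with a sum of 143971 to 233423 CPM. Untreated KO replicate 3 stood apart. It held 18 reads of the T cell gene Cd3d, which had 0 in each of the other 17 libraries, and its 7 T and B lymphocyte markers summed to 19.9 CPM, against at most 3.04 CPM elsewhere. Its 13 macrophage markers summed to 472 CPM, against 151 to 257 CPM in the others. Untreated Het replicate 1 had the lowest sample quality weight, 0.231, followed by that KO library with 0.479. Where leaving out either library changed a call, this is stated, and the value without it is also given for some values that moved. These are bulk islets, in which fewer cells of a type and less RNA per cell cannot be told apart, and gene counts do not separate transcript forms.

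**Figure D1:**
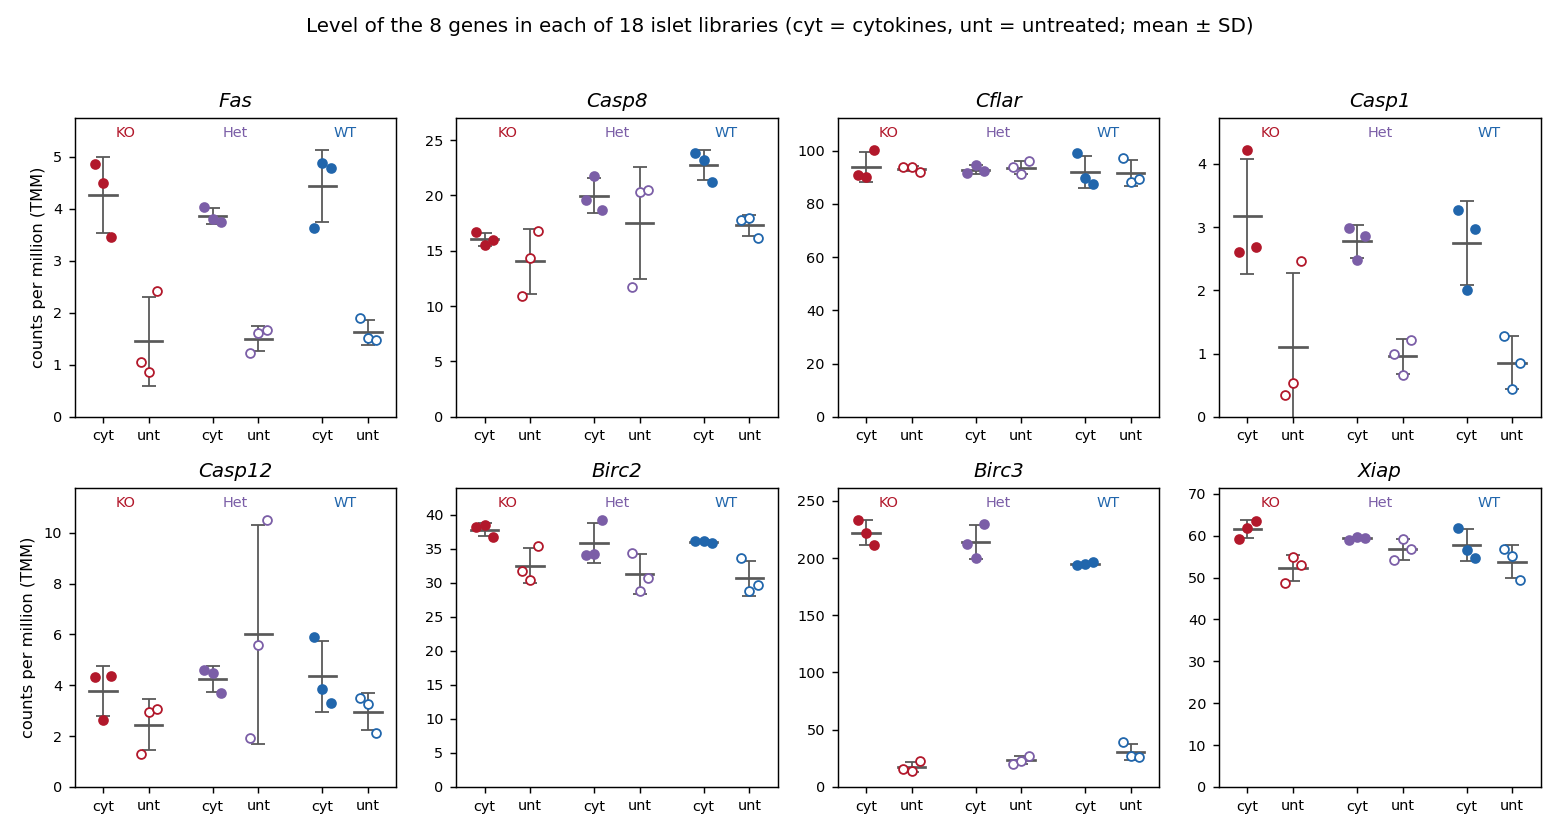
Level of each of the 8 genes (y axes, CPM from 0) in each library (points, 3 per group), with the group mean and SD as bars; filled points are cytokine-treated and open points untreated islets of the genotype named above them. Birc3 lies at 194 to 233 CPM in every cytokine-treated library and at 14.2 to 38.8 CPM in every untreated one, Cflar is level at 87.5 to 100.2 CPM, and untreated KO replicate 3 is the high open point for Fas and Casp1.

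Levels were also set per kilobase of exon, taken over all annotated transcripts. This gave 12669 bases for Cflar, 9469 for Xiap, 4580 for Birc2 and 2893 for Casp8. Gene counts do not show which transcripts were present, so the order of genes depends on the annotation. The SD is the spread of 1 gene among libraries and does not cover this. On this scale Birc3 led the 8 genes in cytokine-treated islets. It had 44.3 ± 2.19 CPM per kb in KO, 42.7 ± 3.02 in Het and 38.9 ± 0.211 in WT islets (SD, n = 3 each). Birc2, Cflar, Casp8 and Xiap followed, at 5.55 to 8.26 CPM per kb over the cytokine-treated groups. In WT islets Birc2 and Casp8, at 7.87 ± 0.0437 and 7.86 ± 0.471 CPM per kb, did not differ beyond their spread, and Cflar at 7.27 ± 0.481 and Xiap at 6.10 ± 0.395 each stood lower by more than 1 SD. In KO islets Birc2 at 8.26 ± 0.212, Cflar at 7.40 ± 0.440, Xiap at 6.50 ± 0.222 and Casp8 at 5.55 ± 0.203 CPM per kb each stood apart by more than 1 SD of the lower gene. Fas, Casp1 and Casp12 were the lowest, with 0.986 to 2.15 CPM per kb, and Fas and Casp1 did not differ beyond their spread. In untreated islets Birc3 stood among the middle genes, with 3.48 ± 0.928 CPM per kb in KO, 4.65 ± 0.744 in Het and 6.09 ± 1.43 in WT islets, while Cflar stood at 7.23 to 7.40 CPM per kb.

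The question of the treatment comparison is which of these genes responded to cytokines. With cytokines, 5 of the 8 members rose in KO, 3 in Het and 4 in WT islets, by edgeR's quasi-likelihood test with a Benjamini-Hochberg adjusted p below 0.05 over all genes. Over all genes tested, 15.3% were higher with cytokines in KO, 12.7% in Het and 12.5% in WT islets. None of the 8 fell by edgeR, DESeq2 or limma, nor at an unadjusted p below 0.05 in edgeR, while 16% of all genes fell in KO, 11.7% in Het and 13.1% in WT islets. The median log2 fold change of the members was 0.44 in KO, 0.19 in Het and 0.47 in WT islets, against -0.03, -0.03 and -0.01 over all genes.

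**Figure D2:**
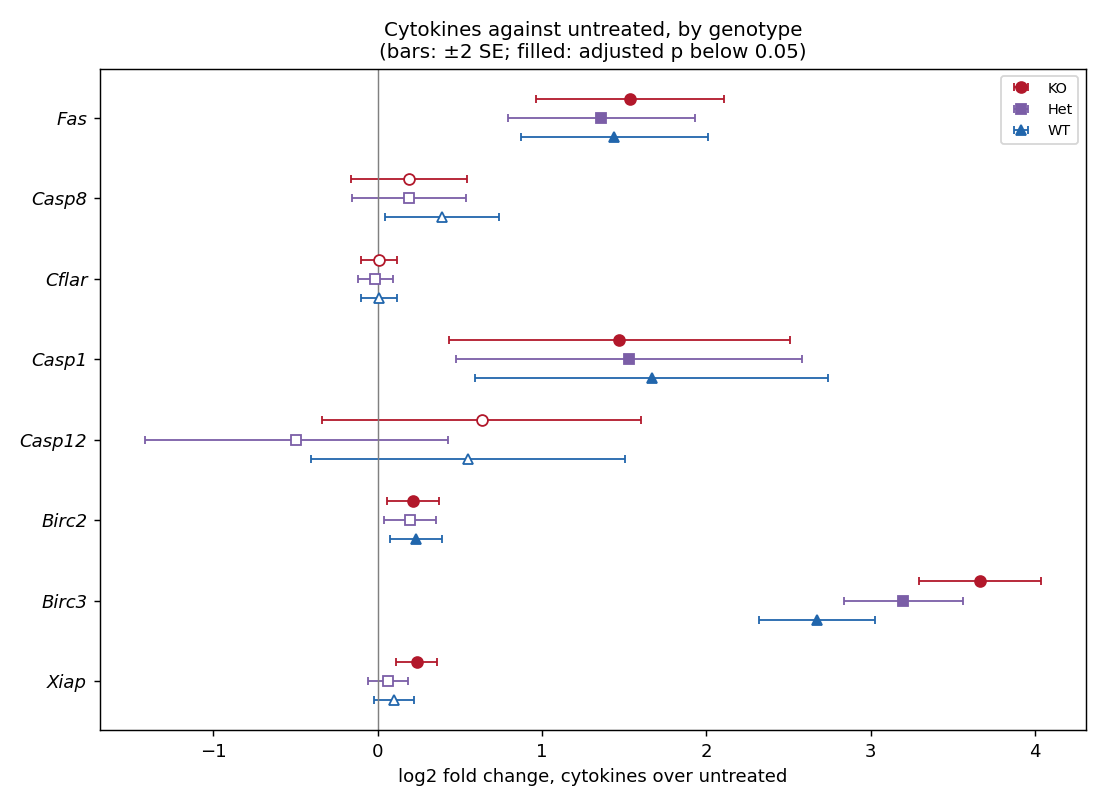
Log2 fold change of each gene with cytokines (x axis, cytokine-treated over untreated) in KO, Het and WT islets (points from top to bottom), with bars of 2 SE either side and filled points for an adjusted p below 0.05. Birc3 lies farthest to the right in all 3 genotypes, at 3.66 in KO, 3.20 in Het and 2.67 in WT islets, Fas and Casp1 lie between 1.36 and 1.67, and Cflar lies on 0.

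Fas (ENSMUSG00000024778; GRCm38 chromosome 19, 34290666 to 34327772, plus strand), the death receptor, was low without cytokines and rose in each genotype. KO islets had 4.87, 4.49 and 3.46 CPM with cytokines, against 1.06, 0.852 and 2.43 CPM untreated. Het islets had 4.03, 3.79 and 3.75 CPM with cytokines, against 1.23, 1.61 and 1.66 CPM untreated. WT islets had 3.64, 4.88 and 4.78 CPM with cytokines, against 1.90, 1.51 and 1.47 CPM untreated. Every treated library was above every untreated one, and the highest untreated value was that of KO replicate 3. Its log2 fold change was 1.54 ± 0.29 in KO (SE, adjusted p = 6.13e-04, edgeR), 1.36 ± 0.28 in Het (adjusted p = 0.00220) and 1.44 ± 0.28 in WT islets (adjusted p = 0.00134). Without untreated KO replicate 3 the KO value was 2.15 ± 0.23 (adjusted p = 4.22e-06). Its ligand Fasl did not pass the low-count filter, with at most 2 reads in a library. The annotated gene Gm27818 overlaps Fas on the same strand, so reads there are assigned with less certainty.

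Casp8 (ENSMUSG00000026029; chromosome 1, 58795374 to 58847503, plus strand) is the initiator caspase below Fas. With cytokines KO islets had 16.7, 15.5 and 16.0 CPM, against 10.9, 14.4 and 16.8 CPM untreated. Het islets had 19.6, 21.8 and 18.7 CPM with cytokines, against 11.7, 20.3 and 20.5 CPM untreated. WT islets had 23.8, 23.2 and 21.2 CPM with cytokines, against 17.8, 17.95 and 16.2 CPM untreated. Only in WT did the treated libraries all lie above the untreated ones. The change did not pass in any genotype, with a log2 fold change of 0.19 ± 0.18 in KO (adjusted p = 0.447, edgeR), 0.19 ± 0.17 in Het (adjusted p = 0.482) and 0.39 ± 0.17 in WT islets (adjusted p = 0.113). Without both libraries of low quality weight it passed in KO (0.35 ± 0.10, adjusted p = 0.0187) and in WT (0.39 ± 0.09, adjusted p = 0.00354), and in Het was -0.03. The WT change also passed in limma voom with quality weights (adjusted p = 0.00807) and in a fit of only the groups compared (adjusted p = 0.00258). As with Fas, an annotated gene, here Gm37760, overlaps Casp8 on the same strand, so reads there are assigned with less certainty.

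Cflar (ENSMUSG00000026031; chromosome 1, 58711508 to 58758884, plus strand), the caspase-8 inhibitor, lies beside Casp8 and hardly varied. Its levels ran from 90.2 to 100.2 CPM in treated KO libraries, against 92.1 to 93.8 CPM in untreated ones. They ran from 91.5 to 94.6 CPM in treated and 91.2 to 96.1 CPM in untreated Het libraries, and from 87.5 to 99.0 CPM in treated and 88.3 to 97.1 CPM in untreated WT libraries. All 3 pairs of groups overlap. Cytokine-treated over untreated islets, the log2 fold change was 0.01 ± 0.05 in KO, -0.01 ± 0.05 in Het and 0.01 ± 0.05 in WT islets. The interval of 2 SE either side ran from -0.10 to 0.12 in WT islets.

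Casp1 (ENSMUSG00000025888; chromosome 9, 5298517 to 5307265, plus strand), the inflammasome caspase, had few reads without cytokines and rose in each genotype. KO islets had 2.61, 4.22 and 2.69 CPM with cytokines, against 0.341, 0.528 and 2.46 CPM untreated. Those untreated values rest on 9, 13 and 75 reads, and the third is from the library with lymphocyte and macrophage markers. Het islets had 2.98, 2.48 and 2.86 CPM with cytokines, against 0.990, 0.664 and 1.21 CPM untreated. WT islets had 3.26, 2.00 and 2.98 CPM with cytokines, against 1.28, 0.437 and 0.844 CPM untreated. Treated libraries lay above untreated ones in each genotype. The log2 fold change was 1.47 ± 0.52 in KO (adjusted p = 0.0427, edgeR), 1.53 ± 0.53 in Het (adjusted p = 0.0460) and 1.67 ± 0.54 in WT islets (adjusted p = 0.0328). Without untreated KO replicate 3 the KO value was 2.85 ± 0.42 (adjusted p = 1.11e-04). These calls lie close to the threshold: without a low-count filter none of them held, with adjusted p = 0.104 in KO, 0.112 in Het and 0.0844 in WT islets. The call was also lost when any of the 6 libraries was left out in Het islets, any but untreated replicate 3 in KO islets, and cytokine replicate 1 or 3 or untreated replicate 2 or 3 in WT islets. Adjusted p then reached 0.150 in Het, 0.147 in KO and 0.126 in WT islets.

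Casp12 (ENSMUSG00000025887; chromosome 9, 5345430 to 5373032, plus strand) is the inflammatory-group caspase named above. KO islets had 4.34, 2.65 and 4.38 CPM with cytokines, against 1.29, 2.96 and 3.08 CPM untreated. Het islets had 4.61, 4.48 and 3.68 CPM with cytokines, against 1.91, 5.59 and 10.5 CPM untreated. WT islets had 5.91, 3.84 and 3.29 CPM with cytokines, against 3.50, 3.26 and 2.13 CPM untreated. Groups overlap in every genotype, and the untreated Het libraries spread the most. The log2 fold change did not pass, at 0.63 ± 0.48 in KO, -0.49 ± 0.46 in Het and 0.55 ± 0.48 in WT islets (adjusted p = 0.355, 0.491 and 0.438, edgeR). Without untreated Het replicate 1 the Het value was -0.92 ± 0.35 (adjusted p = 0.0785), and without untreated Het replicate 3 it was 0.18 ± 0.43 (adjusted p = 0.817).

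Casp1 and Casp12 flank Casp4, the caspase-11 gene of the noncanonical inflammasome. It starts 1563 bases beyond the end of Casp1 and ends 8647 bases before Casp12. Casp4 rose by 1.99 ± 0.33 on the log2 scale in KO (adjusted p = 2.57e-04, edgeR), 1.51 ± 0.31 in Het (adjusted p = 0.00241) and 1.78 ± 0.32 in WT islets (adjusted p = 8.11e-04). These genes are similar in sequence, and the sources used here do not give how reads matching several of them were counted.

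Birc3 (ENSMUSG00000032000; chromosome 9, 7848699 to 7873186, minus strand), which encodes cIAP2, had the largest cytokine change of the 8 genes in all 3 genotypes. KO islets had 233, 222 and 211 CPM with cytokines, against 15.3, 14.2 and 22.8 CPM untreated. Het islets had 213, 199.7 and 230 CPM with cytokines, against 20.1, 22.4 and 27.4 CPM untreated. WT islets had 194, 195 and 196 CPM with cytokines, against 38.8, 26.9 and 25.9 CPM untreated. No treated library came near an untreated one. The change was 12.7-fold in KO (log2 fold change 3.66 ± 0.19, adjusted p = 4.05e-09, edgeR), 9.19-fold in Het (3.20 ± 0.18, adjusted p = 1.46e-08) and 6.38-fold in WT islets (2.67 ± 0.18, adjusted p = 1.10e-07). Without untreated KO replicate 3 the KO log2 fold change was 3.91 ± 0.17 (adjusted p = 3.04e-09).

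Birc2 (ENSMUSG00000057367; chromosome 9, 7818227 to 7837064, minus strand), which encodes cIAP1, is the next gene to Birc3 and moved far less. KO islets had 38.2, 38.5 and 36.7 CPM with cytokines, against 31.7, 30.5 and 35.4 CPM untreated. Het islets had 34.1, 34.2 and 39.2 CPM with cytokines, against 34.4, 28.7 and 30.7 CPM untreated. WT islets had 36.2, 36.1 and 35.8 CPM with cytokines, against 33.6, 28.8 and 29.6 CPM untreated. The groups overlap in Het islets and not in the others. Its log2 fold change was 0.22 ± 0.08 in KO (adjusted p = 0.0479, edgeR), 0.20 ± 0.08 in Het (adjusted p = 0.0854) and 0.23 ± 0.08 in WT islets (adjusted p = 0.0414). The call was lost when any library but untreated replicate 3 was left out in KO islets (adjusted p up to 0.176), and any but untreated replicate 1 in WT islets (up to 0.163). In Het islets the change passed without untreated replicate 1, at 0.27 ± 0.08 (adjusted p = 0.0236).

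Xiap (ENSMUSG00000025860; chromosome X, 42059679 to 42109656, plus strand) passed in KO islets. These had 59.3, 61.9 and 63.5 CPM with cytokines, against 48.8, 54.8 and 53.0 CPM untreated. Het islets had 58.9, 59.8 and 59.4 CPM with cytokines, against 54.2, 59.2 and 56.9 CPM untreated. WT islets had 61.9, 56.6 and 54.7 CPM with cytokines, against 56.9, 55.2 and 49.4 CPM untreated. The groups overlap in Het and WT islets. The log2 fold change was 0.24 ± 0.06 in KO (adjusted p = 0.00738, edgeR), 0.06 ± 0.06 in Het (adjusted p = 0.498) and 0.10 ± 0.06 in WT islets (adjusted p = 0.252). The KO change exceeded the Het change by 0.17 ± 0.09 and the WT change by 0.14 ± 0.09, and neither difference passed (adjusted p = 0.867 and 0.860).

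Marker sums moved with the treatment too, and each sum weighs its most abundant genes most. The sum of the 7 alpha and delta cell markers was lower with cytokines without overlap. In treated libraries the sums were 12552 to 18261 CPM in KO, 12892 to 14464 CPM in Het and 10904 to 14464 CPM in WT. In untreated libraries they were 19510 to 26818, 17750 to 25753 and 15839 to 22243 CPM in the same order. Gcg and Sst, at means of 12193 and 5295 CPM over all libraries, are the largest parts. By edgeR 3 of the 7 fell in KO, 2 in Het and 3 in WT islets. The 10 beta cell markers separated in WT, with 143971 to 162972 CPM in treated libraries, against 166756 to 192505 CPM in untreated ones, and overlapped in KO and Het. Ins2 and Ins1, at means of 111258 and 48253 CPM over all libraries, are the largest parts of this sum. By edgeR 6 of the 10 fell in each genotype and 1 rose in KO islets, where 16% of all genes fell in KO, 11.7% in Het and 13.1% in WT islets. The median log2 fold change of the 10 was -0.84 in KO, -0.66 in Het and -0.80 in WT islets. The 8 duct cell markers summed to 3324 to 4304 CPM in treated KO libraries, against 1555 to 2139 CPM in untreated ones, and to 4072 to 7192 CPM in treated WT libraries, against 2111 to 3178 CPM in untreated ones. In Het they overlapped, with 3847 to 5026 CPM treated, against 1909 to 5288 CPM untreated. Spp1, at a mean of 2473 CPM over all libraries, is the largest part of this sum, followed by Krt7 at 612 CPM. By edgeR 3 of the 8 duct markers rose in KO, 0 in Het and 3 in WT islets, and none fell. Their median log2 fold change was 0.14 in KO, -0.06 in Het and 0.44 in WT islets. The 9 mesenchymal and stellate markers separated in WT, with 681 to 1251 CPM in treated libraries, against 1393 to 1567 CPM in untreated ones. They overlapped in KO, with 464 to 1668 CPM treated, against 1327 to 3409 CPM untreated, and in Het, with 433 to 1058 CPM treated, against 872 to 2686 CPM untreated. By edgeR 0 of these 9 fell in KO, 6 in Het and 2 in WT islets, and none rose. The 13 macrophage markers overlapped in all genotypes, in WT with 179 to 213 CPM treated, against 166 to 189 CPM untreated. The part of these cell types in the members' changes was not tested.

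The genotype comparisons ask whether loss of Slc30a8 moved these genes. In untreated islets 1 of 8 members, Birc3, differed between KO and WT, where 2.94% of all genes did. The values of Fas and Casp1 in that comparison depended on untreated KO replicate 3. Without it the log2 fold change of Fas went from -0.15 ± 0.30 to -0.76 ± 0.24 (adjusted p = 0.0936, edgeR). That of Casp1 went from 0.40 ± 0.56 to -0.99 ± 0.46 (adjusted p = 0.251, edgeR), a change of sign. With cytokines none of the 8 differed between KO and WT by edgeR, where 5.33% of all genes did. DESeq2 called 0 of the 8 there and limma 1, Casp8. At an unadjusted p below 0.05 in edgeR there was 1 member, beside 4230 of all 17590 genes tested. Between Het and WT none passed, where 0.00569% of all genes did untreated and 0% with cytokines. Between KO and Het none passed, where 0% of all genes did untreated and 0.00569% with cytokines. At an unadjusted p below 0.05 there were 2 members for Het against WT untreated and 2 for KO against Het untreated. Over all 17590 genes there were 1226 and 2564. With cytokines there were 0 members for each of these pairs, beside 1237 and 1463 of all genes. DESeq2 called 0 members in all 4 of these comparisons. The limma fit called 2, Casp8 and Casp12, for KO against Het untreated and 0 in the others. The shares of all genes given here are those of edgeR and were not taken for DESeq2 or limma.

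**Figure D3:**
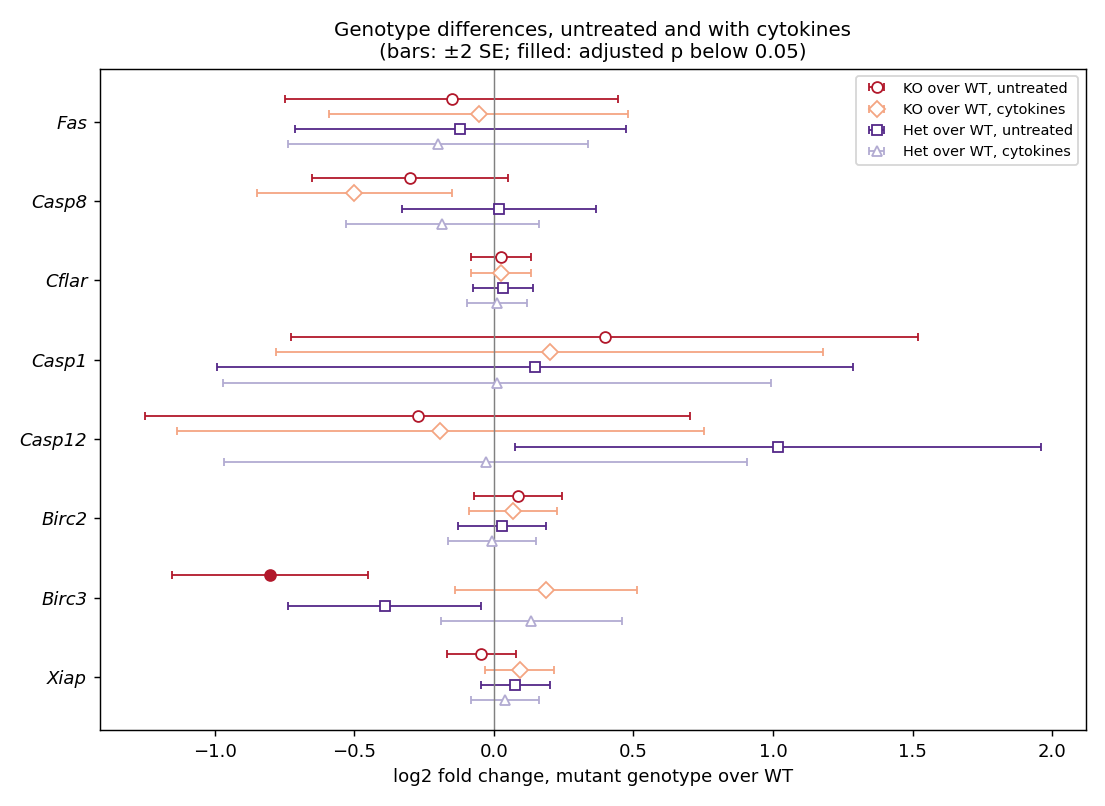
Log2 fold change of each gene between genotypes (x axis, KO or Het over WT), untreated and with cytokines, with bars of 2 SE either side and a filled point where the adjusted p was below 0.05. The filled point is Birc3 in untreated KO islets, at -0.80, while with cytokines its KO and Het points lie at 0.19 and 0.13.

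Birc3 was lower in untreated KO islets than in untreated WT islets, with a log2 fold change of -0.80 ± 0.18 (adjusted p = 0.0270, edgeR). The KO libraries, at 14.2 to 22.8 CPM, lay below the WT libraries, at 25.9 to 38.8 CPM. Untreated Het islets, at 20.1 to 27.4 CPM, overlapped both, with a log2 fold change of -0.39 ± 0.17 against WT (adjusted p = 0.687) and of -0.41 ± 0.18 for KO against Het (adjusted p = 0.309). The KO call was kept without untreated KO replicate 3, at -1.05 ± 0.16 (adjusted p = 0.0141). It was lost without untreated KO replicate 1 (adjusted p = 0.122), KO replicate 2 (0.107) or WT replicate 1 (0.125), without a low-count filter (0.0833) and in a fit of only the groups compared (0.161). Acinar markers, with sums of 1544 to 2427 CPM in untreated KO, against 8111 to 8243 CPM in untreated WT libraries, and endothelial markers, with 213 to 330 CPM in KO, against 403 to 538 CPM in WT, were lower in the same comparison, and their part was not tested. With cytokines the order of Birc3 was the other way: KO libraries at 211 to 233 CPM and WT libraries at 194 to 196 CPM did not overlap, but the log2 fold change of 0.19 ± 0.16 did not pass (adjusted p = 0.517). In untreated KO islets Tnip1, an inhibitor of NF-kB signalling, was also lower than in WT, with a log2 fold change of -0.41 ± 0.08 (adjusted p = 0.0164).

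The cytokine change of Birc3 exceeded that of WT islets by 0.99 ± 0.24 on the log2 scale in KO and by 0.53 ± 0.24 in Het islets. Neither difference passed over all genes (adjusted p = 0.310 and 0.881, edgeR), where 0.0114% of all genes had a passing difference between KO and WT, 0% between Het and WT and 0% between KO and Het. Without untreated KO replicate 3 the KO difference was 1.23 ± 0.20 (adjusted p = 0.154). With all libraries it had an unadjusted p of 0.00100 and passed in DESeq2 (adjusted p = 0.0112) and in limma voom with quality weights (adjusted p = 0.0358). None of the other members passed in any of the 3 tests of a difference in edgeR, DESeq2 or limma. Without untreated KO replicate 3 the KO minus WT difference of Fas went from 0.10 ± 0.40 to 0.71 ± 0.29 (adjusted p = 0.792, edgeR). That of Casp1 went from -0.20 ± 0.74 to 1.19 ± 0.54 (adjusted p = 0.865, edgeR).

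Casp8 had the lowest p among the members for KO against WT with cytokines. The KO libraries, at 15.5 to 16.7 CPM, lay below the WT libraries, at 21.2 to 23.8 CPM, and below the Het libraries, at 18.7 to 21.8 CPM. Against WT, the log2 fold change of -0.50 ± 0.17 did not pass over all genes (unadjusted p = 0.0119, adjusted p = 0.104, edgeR). It passed in limma voom with quality weights (adjusted p = 0.00529), in a fit of only the groups compared (adjusted p = 0.0275) and without both libraries of low quality weight (adjusted p = 0.00375), and gave adjusted p up to 0.284 when a library was left out. Duct markers were lower on average too, with sums of 3324 to 4304 CPM in treated KO libraries, against 4072 to 7192 CPM in treated WT libraries, and so were acinar markers, with 748 to 1747 CPM in KO, against 5507 to 10490 CPM in WT. Endothelial markers were lower as well, with 150 to 264 CPM in KO, against 343 to 528 CPM in WT. Their part in the Casp8 difference was not tested.

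Casp12 had the lowest p for KO against Het untreated, with a log2 fold change of -1.29 ± 0.48 (unadjusted p = 0.0169, adjusted p = 0.254, edgeR). Without untreated Het replicate 1 it passed, at -1.71 ± 0.36 (adjusted p = 0.0124), as did Casp8, at -0.54 ± 0.12 (adjusted p = 0.0161). Without untreated Het replicate 3 the Casp12 value was -0.61 (adjusted p = 0.856). Without untreated Het replicate 1 and untreated KO replicate 3 together, Fas (-0.77 ± 0.25, adjusted p = 0.0470) and Birc3 (-0.75 ± 0.17, adjusted p = 0.0121) passed too. The untreated Het libraries had 1.91, 5.59 and 10.5 CPM of Casp12, 11.7, 20.3 and 20.5 CPM of Casp8, and duct marker sums of 1909, 4175 and 5288 CPM. Replicate 1 was the lowest of the 3 in both caspases and in the duct marker sum. This was not particular to duct markers: it was also lowest in the mesenchymal and stellate (872, 2397 and 2686 CPM), macrophage (151, 257 and 212 CPM) and endothelial sums (349, 417 and 449 CPM). Its beta cell sum and its alpha and delta cell sum were the highest of the 3, and its acinar sum lay between the others. The part of duct or other cells in these values was not tested. After each group's mean was taken off, Casp8 and Casp12 had a Pearson r of 0.88 over the 18 libraries, given as a description.

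**Figure D4:**
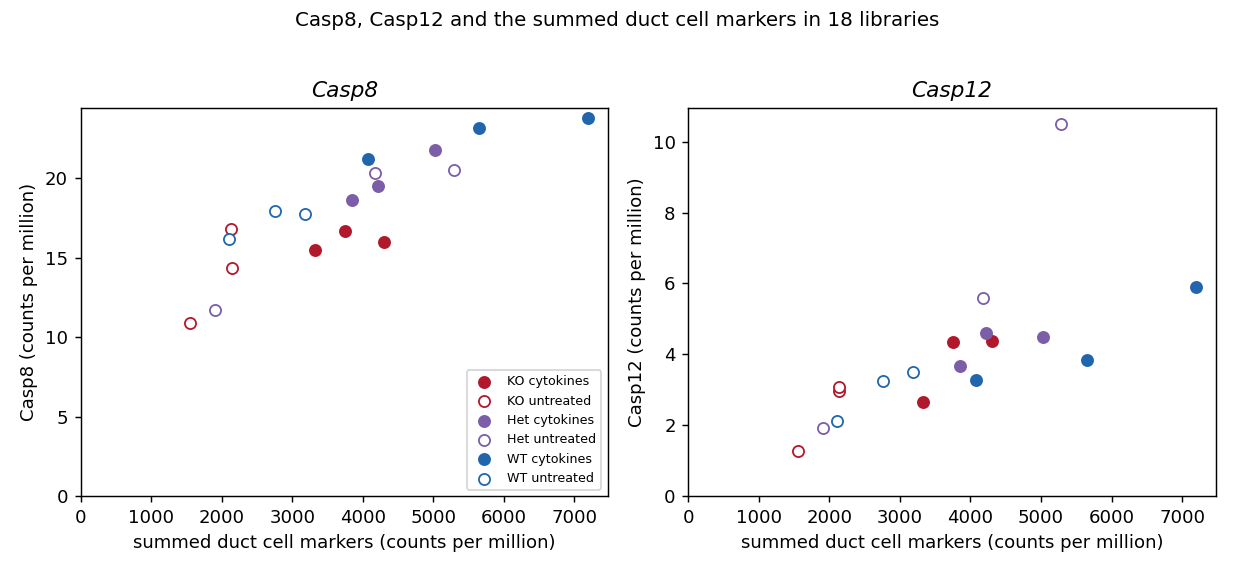
Casp8 and Casp12 (y axes, CPM) against the summed level of 8 duct cell markers (x axis, CPM) in 18 libraries, filled for cytokine-treated and open for untreated islets, coloured by genotype. Untreated Het replicate 1 lies at 1909 CPM of duct markers, with 11.7 CPM of Casp8 and 1.91 CPM of Casp12. Untreated Het replicate 3 lies at 5288 CPM, with 20.5 and 10.5 CPM. Spp1, at a mean of 2473 CPM over the 18 libraries, is the largest part of the sum.

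The genes around the members in their pathways were read from 7 lists, counted by the same test. Beside each count below stands the share of all genes tested. With cytokines 15.3% of these rose in KO, 12.7% in Het and 12.5% in WT islets. In the same order 16%, 11.7% and 13.1% fell. A count of 1 or 2 in a short list therefore says little about the list, and genes are named to describe it. In the death receptor list, with 24 of 26 genes tested, 9 rose and 1 fell in KO, 10 rose and 0 fell in Het, and 9 rose and 0 fell in WT islets. The gene that fell, Tab1, was named after its value was seen (-0.20 ± 0.07, adjusted p = 0.0464). Tnf rose by 2.69 ± 0.32 on the log2 scale in KO, 2.31 ± 0.30 in Het and 2.36 ± 0.31 in WT islets. Tnfaip3 (A20), which restrains NF-kB signalling, rose by 2.57 ± 0.29, 2.24 ± 0.28 and 2.23 ± 0.28 in the same order. Tnip1, its partner, rose by 1.76 ± 0.09, 1.58 ± 0.08 and 1.35 ± 0.08, and the death ligand Tnfsf10 (TRAIL) by 1.46 ± 0.15, 1.42 ± 0.15 and 0.93 ± 0.15. All of these had an adjusted p of at most 2.75e-04 in edgeR.

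Among the other caspases, Casp4 rose in each genotype, with the values given above. The apoptosome initiator Casp9, named after its values were seen, fell in KO and Het islets, at -0.32 ± 0.07 in KO and -0.20 ± 0.07 in Het islets, against 0.08 ± 0.07 in WT islets, where it did not pass. Of 4 necroptosis genes, 2 rose in KO and 1 each in Het and WT islets, and Mlkl, the pore-forming effector, rose in all, by 0.94 ± 0.18 in KO, 0.84 ± 0.17 in Het and 0.84 ± 0.17 in WT islets on the log2 scale. The other, named after its value was seen, was Zbp1, a sensor of nucleic acids, at 1.80 ± 0.55 in KO islets (adjusted p = 0.0239).

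Of 11 inflammasome and pyroptosis genes tested, 5 rose and 1 fell in KO, 4 rose and 0 fell in Het, and 5 rose and 0 fell in WT islets. The sensor Nlrp3 rose by 1.198 ± 0.43 in KO, 1.35 ± 0.44 in Het and 2.02 ± 0.44 in WT islets. The cytokine Il1b rose by 1.53 ± 0.26, 1.23 ± 0.26 and 1.504 ± 0.27, Txnip by 1.06 ± 0.05, 0.94 ± 0.05 and 1.02 ± 0.05, and Gsdmd, which caspase-1 and caspase-11 cleave, by 0.81 ± 0.14, 0.82 ± 0.14 and 1.19 ± 0.14 in the same order. Named after its values were seen, Il1rn, the IL-1 receptor antagonist, was the other that rose, in KO and WT islets (1.37 ± 0.46 and 1.73 ± 0.45), and the DNA sensor Aim2 fell in KO islets (-1.73 ± 0.50, adjusted p = 0.0144). These are RNA levels and do not measure cleavage by caspases.

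Of 10 apoptosome and execution genes, 4 rose and 2 fell in KO, 2 rose and 2 fell in Het, and 4 rose and 2 fell in WT islets. The nuclease gene Dffb fell by 0.70 ± 0.12 in KO, 0.45 ± 0.12 in Het and 0.39 ± 0.12 in WT islets, and Parp1, which caspases cleave, by 0.37 ± 0.05, 0.16 ± 0.05 and 0.21 ± 0.05. Cycs, the gene of cytochrome c, rose by 0.21 ± 0.06, 0.16 ± 0.06 and 0.28 ± 0.06. The others that rose, named after their values were seen, were Apaf1, Endog and Pak2 in KO, Dffa in Het, and Apaf1, Aifm1 and Acin1 in WT islets. Of 5 other inhibitors of apoptosis, 1 rose in each genotype and 1 fell in KO (Birc6, -0.22 ± 0.08) and in Het islets (Birc5, -1.61 ± 0.50), both named after their values were seen. The gene that rose was Naip2, by 0.68 ± 0.08, 0.69 ± 0.08 and 0.47 ± 0.08, which shares sequence with other Naip copies and is uncertain for that reason. Of 5 antagonists of these inhibitors, none rose in edgeR, where Xaf1 in KO and Gspt1 in WT islets had an unadjusted p below 0.05. Htra2, a mitochondrial protease, passed in Het islets, at -0.27 ± 0.09 (adjusted p = 0.0349). It was at -0.18 ± 0.09 in KO (adjusted p = 0.142) and 0.17 ± 0.09 in WT islets (adjusted p = 0.171), and the differences were not called. Xaf1, the XIAP antagonist, did not pass, at 0.84 ± 0.35 in KO, -0.15 ± 0.33 in Het and 0.09 ± 0.33 in WT islets.

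**Figure D5:**
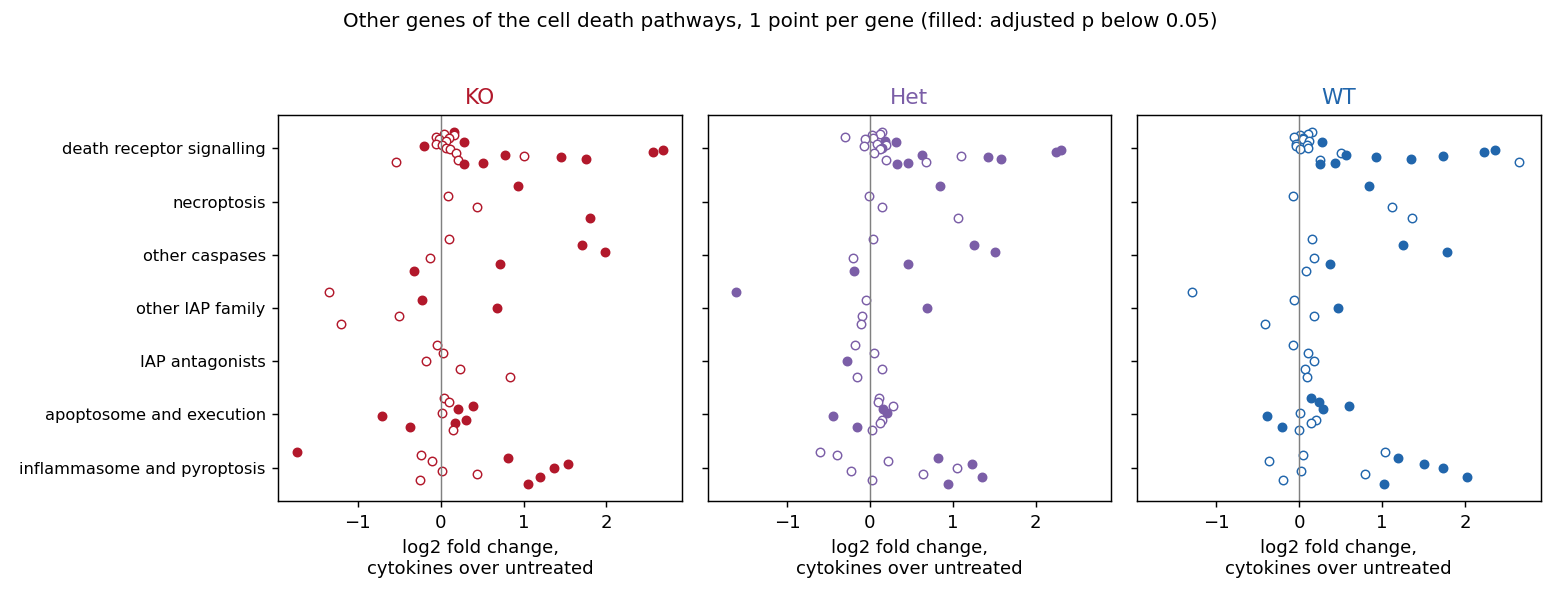
Log2 fold change with cytokines (x axes, cytokine-treated over untreated) of the tested genes of 7 pathway lists (rows) in KO, Het and WT islets, 1 point a gene, filled where the adjusted p was below 0.05. The filled points of the death receptor list reach 2.69 in KO, and those of the apoptosome and execution list include the falling Dffb and Parp1.

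The patterns most like each member were sought over 18 libraries and 12340 genes by Pearson's r of log2(CPM + 0.5), as a description in which both treatments contribute. Nos2, the inducible nitric oxide synthase gene, had r = 0.997 with Birc3, followed by Znrf1 and Tnip1. Zc3h12d (r = 0.97), Sh3bgrl3 and Lyn were nearest to Fas, and Sp110 (r = 0.95), Ly75 and Psmb8, a subunit of the immunoproteasome, to Casp1. Efhd2 (r = 0.96), Celsr1 and Tspan14 were nearest to Casp8, and Fgfr2 (r = 0.96), Cdk6 and Anxa8 to Casp12. Cyp7b1 (r = 0.90), Psma3 and Slc35a2 were nearest to Birc2, and Purb (r = 0.92), Taf1d and Coq10b to Xiap. The steady Cflar had no close neighbour, its nearest being Flvcr1 at r = 0.73.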

How the data were processed

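A table of raw counts for 55536 genes in 18 libraries was deposited by the authors. FastQC 0.11.7, cutadapt 1.16, STAR 2.5.2a, featureCounts 1.6.2, DESeq2 1.30.0 and the build GRCm38 are named, with no roles, per the submitters' processing notes. The sources used here do not give strand use in counting. A deposited table of conditions supplied a replicate number, used only as a block in an alternative. From the counts, filterByExpr (count minimum 10), TMM scaling, CPM and a quasi-likelihood fit with robust dispersion (edgeR 4.0.16, R 4.3.3) were computed over 6 groups, with 12 residual degrees of freedom and 12 comparisons. P-values were adjusted over 17590 genes, with a threshold of 0.05. The fit was tested on simulated data. Exon lengths and positions came from GENCODE M21, and promoter windows from RefSeq. Figures used Python 3.11.15 and matplotlib 3.10.9. The members and lists were chosen with earlier results of these data known.

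The named genes were the 8 members in every group, and in genotype comparisons and interactions every member that passed or, with none, the one of smallest p. From each pathway list they were up to 4 genes that passed in all 3 cytokine comparisons, or up to 2 of smallest p. Like patterns were the 3 genes of highest r among those of at least 2 CPM. Birc3 and Casp8 in other genotype comparisons, Fas and Casp1 in genotype comparisons and interactions, and Tnip1 between genotypes, were named after their values were seen. Other settings tried were size factors by RLE, leaving out the low-count filter, the genes of the authors' filtered table, only the groups compared, DESeq2 1.42.0, limma 3.58.1 voom with quality weights, replicate numbers as a block, each library left out, and the 2 libraries of lowest quality weight left out. A block by the metadata number and edgeR without robust estimation were added after seeing the data. Some genes that the rule names are left out of the text.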

Additional observations from a re-analysis of the deposited data

How the results depend on the processing

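Fas and Birc3 with cytokines kept their call and direction in all 18 alternatives of each genotype, as did Xiap in KO islets. The number of members higher with cytokines was 3 in KO islets without a low-count filter, where Casp1 and Birc2 were lost. It was higher in other settings: 6 in KO, 4 in Het and 5 in WT islets without the 2 lowest quality weights, 4 in Het and 5 in WT under limma, and 5 in WT with only the groups compared, through Casp8 in KO and WT and Birc2 in Het. Leaving out each library gave 3 to 5 higher members in KO, 2 to 3 in Het and 2 to 4 in WT islets, through Casp1 and Birc2. For KO against WT untreated, no filter and only the groups compared each gave 0, the 2 lowest quality weights left out gave 2, and leaving out each library gave 0 to 1. For KO against Het untreated, limma gave 2, the 2 lowest weights left out gave 4, and leaving out each library gave 0 to 2. For KO against WT with cytokines, only the groups compared, limma and the 2 lowest weights left out each gave 1. The KO to WT difference in cytokine change had 1 member in DESeq2 and 1 in limma. Shares of all genes called were taken only in the main edgeR fit of all libraries. The counts of members in the other settings therefore have no share beside them and are not a result about the members. The cause of these moves was not tested beyond the number of genes or libraries in each fit.

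No value that changed sign had been called. Cflar was -0.00217 in WT and -0.0222 in KO islets under limma, and -0.00100 in KO without the 2 lowest weights. Leaving out each library, Cflar ran from -0.0460 to 0.0528 in WT, -0.0321 to 0.00519 in Het and -0.0402 to 0.0356 in KO islets. Casp8 in Het was -0.0322 without the 2 lowest weights and ran from -0.0320 to 0.319 as libraries were left out, and Casp12 in Het, at -0.49 with all libraries, from -0.918 to 0.183. Of 96 group levels under other scalings, 94 moved by under 1 SD.

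Whether shared replicate numbers mark shared mice is not known. Of 9 same-genotype pairs with a shared number, 6 had deviations correlated above 0.1. Over the 9 pairs r ran from -0.31 to 0.48, with a median of 0.159. Of 36 pairs of different genotypes with a shared number in the descriptions, 9 had r above 0.1, and the median was -0.071. These values do not settle whether same-genotype libraries are paired, and the main fit did not treat them as paired. With a replicate block by number within genotype, Birc2 lost its call in KO (adjusted p = 0.0624) and WT islets (adjusted p = 0.0550). With the block by title number, Casp1 in Het islets was lost as well (adjusted p = 0.0537). Casp1 rests on 9 to 94 reads a library. Its cytokine change had the largest SE of the members called, at 0.52 in KO, 0.53 in Het and 0.54 in WT islets. What widens it was not tested.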
